A study of Mus musculus with 16 samples.

Results

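Tumours grown from MSI cells were set against tumours grown from CIN cells in mice that had received dendritic cells loaded with free DNA. The comparison used the 8 libraries of 16 whose titles name free DNA, 4 from MSI tumours and 4 from CIN tumours. MSI stands for microsatellite instability, the state of cells that have lost DNA mismatch repair, and CIN for chromosomal instability. Both were lines of MC38, a mouse colon carcinoma line of the C57BL/6 strain, placed on day 1 in the wall of the descending colon of C57BL/6 mice. Every mouse also received dendritic cells grown from bone marrow, which had been exposed for 30 minutes to 2 µg of DNA with a lipid transfection reagent and were given into the abdominal cavity on days 1, 6 and 12. The tumours were collected on day 15. Each tumour type had 2 libraries with DNA of MSI cells and 2 with DNA of CIN cells, so DNA source was balanced between MSI and CIN tumours and was a term of the model. For sequencing, RNA of 3 biological replicates was mixed in equal parts. It is not stated if every library had a mix of its own, and the p-values may therefore reflect technical spread in part. One line stood for each tumour type, so that whatever else distinguishes the lines cannot be told apart from the type of instability. Libraries of mice given unstimulated dendritic cells were not analysed here.

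Loss of mismatch repair leaves copying errors in the genome, while chromosomal instability leads to gains and losses of whole chromosomes or their arms. DNA that leaks into the cytosol is sensed by cGAS, which makes a second messenger for the adaptor STING. STING signalling induces type I interferon, and interferon in turn induces antiviral genes and chemokines such as Cxcl9, which draws activated T cells. A tumour in the colon wall also holds fibroblasts, vessels, mast cells and other leukocytes beside the cancer cells, and bulk RNA sums over all of them. In these bulk samples, fewer cells of a type and less RNA per cell cannot be told apart.

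The 8 libraries held 13263948 to 17937501 counts each, and 17889 genes passed the filter on low counts. Levels are given below as CPM, counts scaled to library size with TMM factors, and always in the order replicate 1 and 2 with MSI DNA, then replicate 1 and 2 with CIN DNA. A gene was called where edgeR's quasi-likelihood test gave a Benjamini-Hochberg adjusted p under 0.05 over all genes tested. Some libraries stood apart in tissue markers. The mean log2 CPM of 19 colon epithelium genes was 6.98, 8.68, 5.36 and 8.75 in MSI tumours, against 7.88, 6.44, 6.86 and 6.51 in CIN tumours. Both replicate 2 libraries of MSI tumours were thus the highest, and they were also the highest in smooth muscle genes and in the mitochondrial share of counts, at 3.19 and 2.88% against 1.43 to 2.04% in the other 6 libraries. Skeletal muscle genes had a mean log2 CPM of -0.15, 1.10, -0.15 and 0.13 in MSI tumours, against 0.09, 3.14, 0.94 and 3.89 in CIN tumours, so both replicate 2 libraries of CIN tumours were high. The first principal component of log2 CPM held 55.3% of the variance, with both replicate 2 libraries of MSI tumours at one end.

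**Figure D1:**
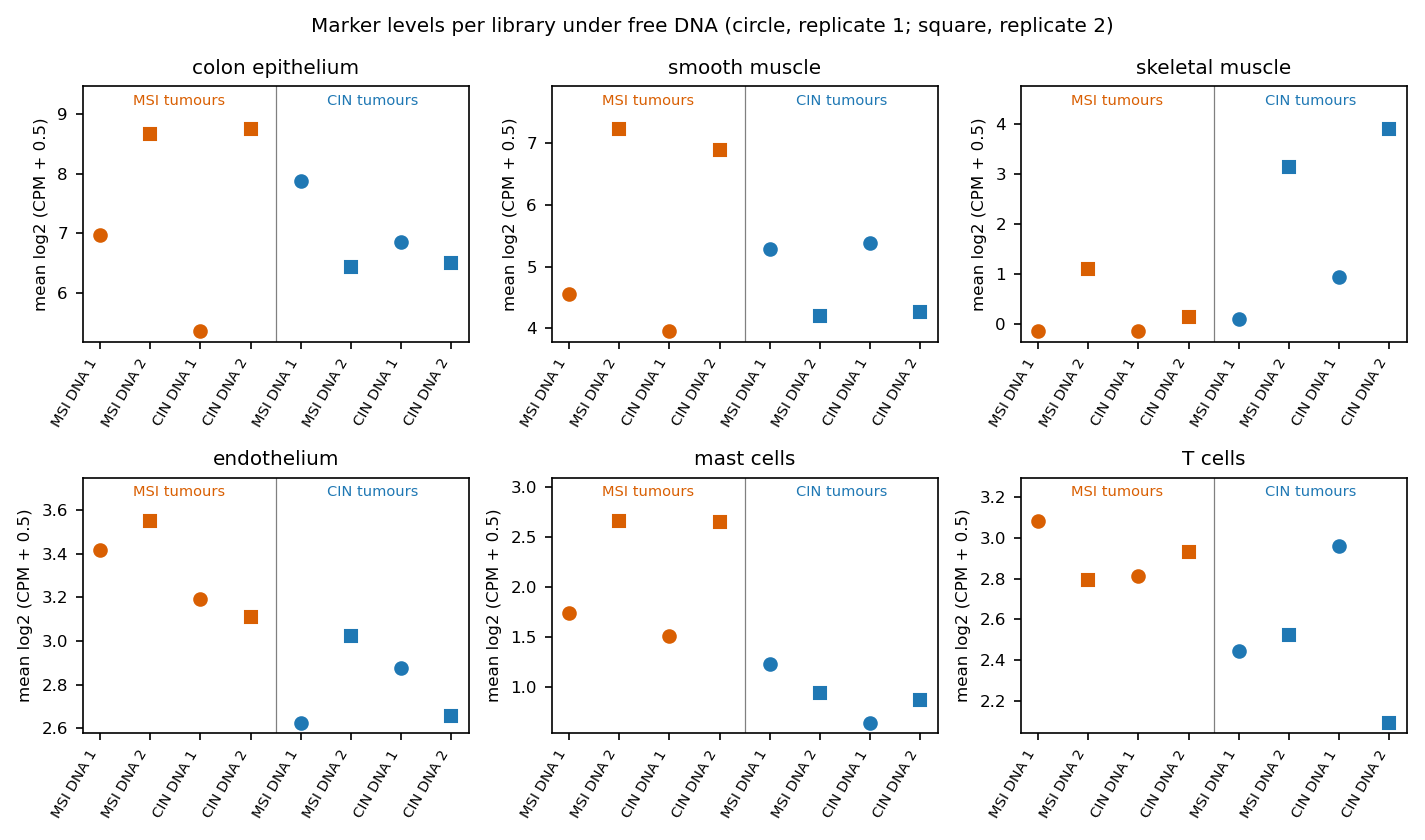
Mean log2 (CPM + 0.5) of the tested members of 6 marker lists (vertical axes) in each of the 8 free DNA libraries (horizontal axes, by DNA source and replicate), with MSI tumours in orange on the left and CIN tumours in blue on the right. Colon epithelium and smooth muscle genes were high in the replicate 2 libraries of MSI tumours, skeletal muscle genes in the replicate 2 libraries of CIN tumours, and mast cell and endothelial genes in all 4 libraries of MSI tumours.

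The question was which genes differed between MSI and CIN tumours while the form of DNA was held at free DNA. MSI tumours had higher levels of 21 genes and lower levels of 72 genes than CIN tumours, or 0.117% and 0.402% of the genes tested. The 21 higher genes included the activin antagonist Fst, the adhesion genes Cdh26 and Amigo2 and the interferon-induced genes Cxcl9, Zbp1 and Dhx58. The 72 lower genes included the neurotrophin receptor Ngfr, the neural genes Nrn1, Ncam1, Nes and Tubb3, 5 collagen genes, the bone and macrophage glycoprotein Spp1 and the hypoxia regulator Egln1. All 93 called genes had 4 MSI libraries on one side of all 4 CIN libraries, beside 4.85% of all tested genes apart and higher and 6.89% apart and lower. The median log2 fold change over all genes tested was 0.04. The fold changes of called genes ran from 1.82 upward among the higher ones and from 1.54 upward among the lower ones, with median log2 fold changes of 1.74 and -1.70. The higher genes were all protein-coding, and 69 of the lower ones were, beside 2 lincRNAs and 1 antisense gene.

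The number of calls depended on which libraries were included. Without both replicate 2 libraries of CIN tumours edgeR called 0 genes (955 with an unadjusted p under 0.05). All 93 genes kept their direction and had an unadjusted p under 0.05 (edgeR). They were called on these same libraries with no overlap between tumour types, so neither is independent of the call. Their median log2 fold changes were then 1.76 for the higher and -1.59 for the lower genes, and 3 of 93 moved by more than 1.5 times. Without both replicate 2 libraries of MSI tumours, a setting added after the data were seen, 97 genes were higher and 152 lower, 80 of the 93 among them. All 93 again kept their direction, and 2 moved by more than 1.5 times. Leaving out any 1 library gave 4 to 209 calls. There were 4 calls without either library of CIN tumours with CIN DNA, and 21 and 5 without replicate 1 or 2 of CIN tumours with MSI DNA. There were 8 and 18 without replicate 1 or 2 of MSI tumours with MSI DNA, and 209 and 47 without replicate 1 or 2 of MSI tumours with CIN DNA. With the replicate number as a block 25 genes were called. The cause of these shifts was not tested.

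**Figure D2:**
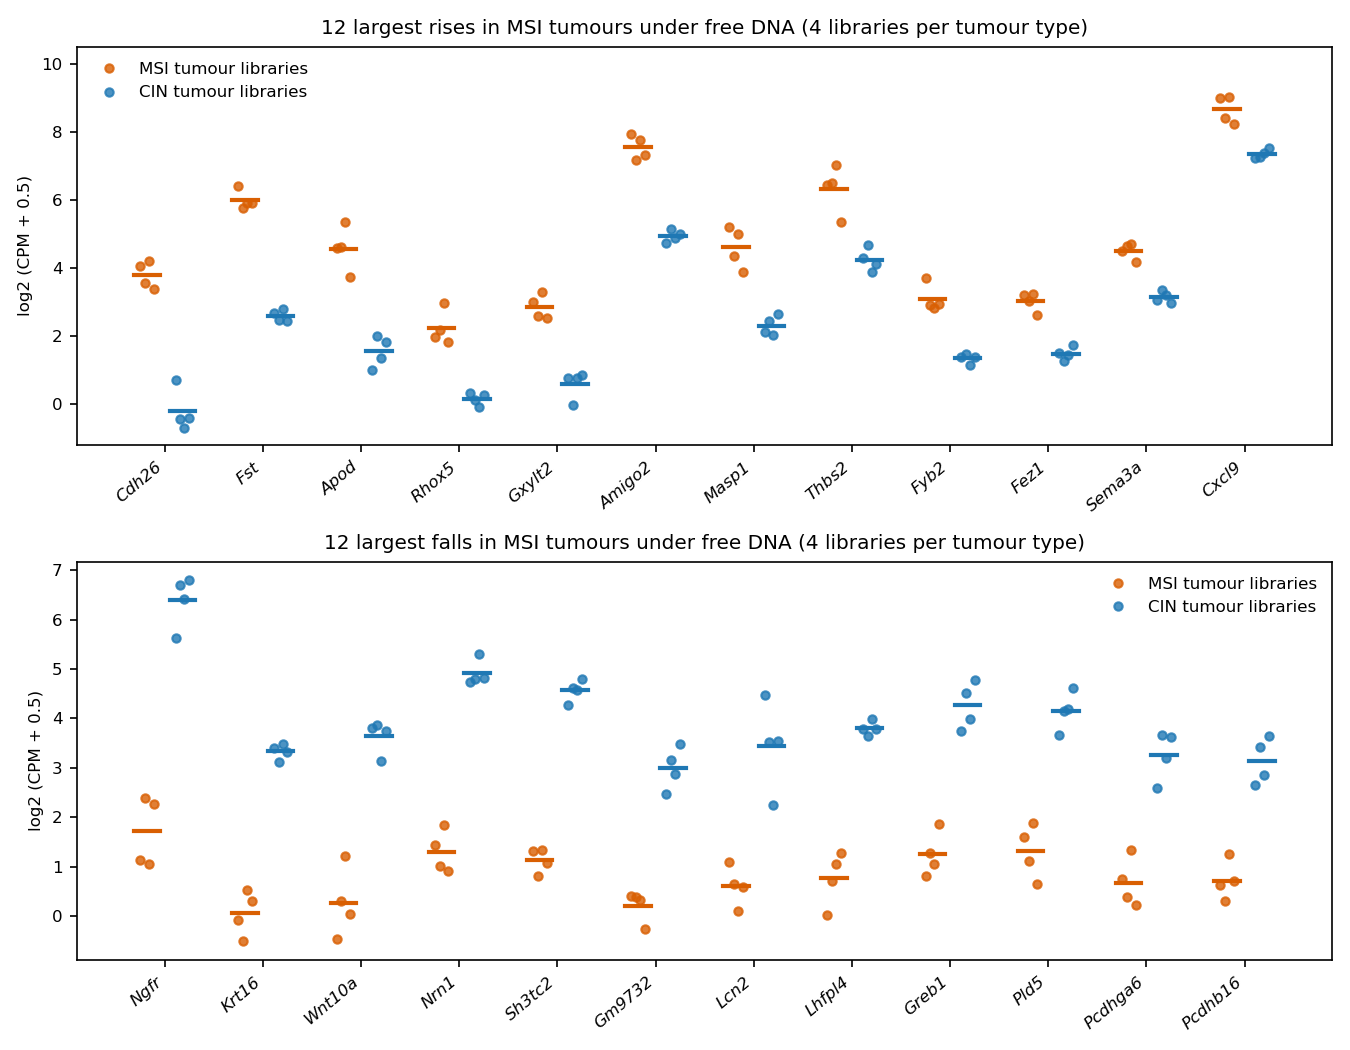
Log2 (CPM + 0.5) of the 12 protein-coding genes with the largest rise (top) and the 12 with the largest fall (bottom) in MSI tumours. They were chosen among called genes whose mean log2 CPM reached 1 and whose libraries did not overlap between tumour types. Points are the 4 libraries of MSI tumours (orange, left of each pair) and of CIN tumours (blue), and bars are their means.

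Several higher genes encode secreted proteins, a grouping made after the values were seen. Fst encodes follistatin, a secreted protein that binds activin and keeps it from its receptor. Its level was 84.1, 53.6, 59.3 and 59.9 CPM in MSI tumours, against 5.94, 5.06, 6.49 and 4.90 CPM in CIN tumours. Every MSI library thus lay far above every CIN library (11.4-fold, log2 fold change 3.51 ± 0.20 SE, edgeR adjusted p = 0.00154). The log2 fold change of Fst was 3.35 without the muscle-rich CIN libraries and 3.66 without the colon-rich MSI libraries. Fst (ENSMUSG00000021765) lies on chromosome 13 of GRCm38 from 114452290 to 114458951. It was the 1 called gene of the activin and follistatin list, of which 8 of 16 members were positive with a median log2 fold change of 0.00. Smad7, the inhibitory SMAD induced by TGF-beta, had a log2 fold change of -0.55 and did not pass. Apod, which encodes the lipid carrier apolipoprotein D, had 23.7, 23.9, 40.3 and 12.7 CPM in MSI tumours, against 1.503, 3.51, 2.06 and 3.08 CPM in CIN tumours. Thbs2, a matrix glycoprotein of the thrombospondin family that restrains vessel growth, had 85.8, 89.9, 131.3 and 40.5 CPM in MSI tumours, against 19.2, 24.9, 14.4 and 16.8 CPM in CIN tumours. Both genes varied widely among MSI libraries but did not overlap between tumour types (log2 fold changes 3.30 ± 0.43 and 2.23 ± 0.35, edgeR adjusted p = 0.0290 and 0.0443). Sema3a, a secreted guidance cue that repels axons, averaged 22.4 ± 3.496 CPM in MSI and 8.46 ± 1.02 CPM in CIN tumours (SD, n = 4 each, log2 fold change 1.41). Kitl encodes stem cell factor, the ligand of the receptor Kit that mast cells need to survive. Its level was 116, 106, 140 and 91.6 CPM in MSI tumours, against 51.9, 48.2, 40.5 and 48.0 CPM in CIN tumours, a log2 fold change of 1.27 (edgeR adjusted p = 0.0274).

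Among the adhesion genes, Cdh26, a cadherin found in epithelia, had 16.3, 11.2, 17.99 and 9.99 CPM in MSI tumours, against 1.13, 0.24, 0.11 and 0.25 CPM in CIN tumours. Amigo2, a leucine-rich adhesion protein, had 247.6, 144, 219 and 158 CPM in MSI tumours, against 26.3, 34.6, 28.8 and 31.4 CPM in CIN tumours (log2 fold change 2.67 ± 0.21, edgeR adjusted p = 0.00634). They were the 2 called members of the list of cadherins, claudins and EMT genes, of which 11 of 23 were positive. The remaining large rises were in Rhox5, a homeobox gene of the X chromosome (log2 fold change 2.83), the xylosyltransferase gene Gxylt2 (2.74), the lectin pathway protease gene Masp1 (2.50), Fyb2 (2.00) and the axonal transport gene Fez1 (1.74). Zfp985, a zinc finger gene, had 171 counts over the MSI libraries and 1 count over the CIN libraries, a ratio of 187 per unit of depth with a 95% exact interval of 33.2 to 7439 for counting error only. It is one of many similar zinc finger genes, so reads could be shared with its relatives. Sgk1, a kinase induced by glucocorticoids, had 257, 210, 174 and 215 CPM in MSI tumours, against 104, 89.7, 70.0 and 83.8 CPM in CIN tumours. Arhgap18, Ptprk, Sgk1 and Kitl all lie on chromosome 10, which held 4 of the 21 higher genes, 1 of the 72 lower genes and 4.73% of the genes tested. Chromosome 1 held 0 higher and 12 lower genes (edgeR) and 6.24% of the genes tested. Chromosome 8 held 0 higher and 9 lower genes and 5.28% of the genes tested, and chromosome 16 held 3 higher and 0 lower genes and 3.13%. No test of position was made.

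Of the neurotrophin list, 3 of 15 tested members fell and 0 rose by edgeR, against 0.402% and 0.117% of all genes. Of the 15, 9 were positive, against 53.8% of all genes. Ngfr, a receptor shared by all neurotrophins, had 1.70, 4.77, 1.57 and 4.30 CPM in MSI tumours, against 48.9, 103.9, 85.5 and 111.5 CPM in CIN tumours. The lowest CIN library was thus far above the highest MSI library (log2 fold change -4.81 ± 0.48, edgeR adjusted p = 0.0139). Without the muscle-rich CIN libraries its log2 fold change was -4.41, and without the colon-rich MSI libraries -5.74. Ngfr (ENSMUSG00000000120) lies on chromosome 11 from 95568818 to 95587735. Nrn1, which encodes neuritin, a membrane-anchored protein that promotes neurite growth, had 2.22, 1.52, 3.07 and 1.39 CPM in MSI tumours, against 26.2, 27.3, 38.8 and 27.8 CPM in CIN tumours. Sorcs2, a sorting receptor that binds the precursor of nerve growth factor, had 19.2, 19.8, 22.4 and 14.7 CPM in MSI tumours, against 45.5, 60.3, 47.0 and 68.8 CPM in CIN tumours. These 3 were the called members of the list, whose median log2 fold change was 0.26. Without the colon-rich MSI libraries that median was -0.92, with 3 positive and 10 negative.

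Other called lower genes have known roles in neural cells, a grouping made after the values were seen, while the axonal gene Fez1 rose. Ncam1, the neural cell adhesion molecule, had 5.85, 10.53, 6.33 and 7.80 CPM in MSI tumours, against 30.3, 36.9, 33.6 and 39.2 CPM in CIN tumours. Tubb3, the neuronal beta-tubulin, averaged 205.9 ± 74.1 CPM in MSI and 565.7 ± 26.8 CPM in CIN tumours (SD, n = 4 each, log2 fold change -1.49, edgeR adjusted p = 0.0324). Nes, an intermediate filament gene of progenitor cells, fell by 1.70, Map1a by 1.07, Tenm3 by 2.19 and Bhlhe22 by 2.23 on the log2 scale. Sh3tc2, which in Schwann cells serves myelination, had 2.00, 1.26, 2.01 and 1.59 CPM in MSI tumours, against 18.9, 24.2, 23.3 and 27.2 CPM in CIN tumours (log2 fold change -3.77 ± 0.22, edgeR adjusted p = 0.00154). The protocadherin genes Pcdhga6 and Pcdhb16 fell by 3.04 and 2.89, but members of these clusters share exons or sequence and their reads are uncertain. The enteric neuron and glia list went the other way. Of its 20 tested members 16 were positive with a median log2 fold change of 1.14, Tubb3 was the 1 called member, and without the colon-rich MSI libraries the median was -0.30.

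Among signalling genes, Wnt10a, a Wnt ligand of skin and its appendages, had 0.22, 0.73, 1.82 and 0.53 CPM in MSI tumours, against 13.5, 14.0, 8.28 and 12.8 CPM in CIN tumours. It was the 1 called gene of 26 tested Wnt ligands, antagonists and targets, whose median log2 fold change was 0.05. Without the colon-rich MSI libraries the Wnt median was -0.46, with 4 positive and 22 negative, and without the muscle-rich CIN libraries -0.02. The EGF receptor ligand Btc fell by 1.98, the immediate early factor Egr3 by 1.54 and the ETS repressor Erf by 0.92 on the log2 scale. Egr3 had 8.74, 6.16, 9.15 and 7.54 CPM in MSI tumours, against 21.0, 25.1, 21.8 and 23.6 CPM in CIN tumours. Of the 20 immediate early and ERK feedback genes it alone was called, and 8 were positive. The transcription factor genes Sox9, Sox12 and Tbx3 fell by 1.14, 1.01 and 1.43. Greb1, a target of the estrogen receptor, had 1.26, 1.92, 1.57 and 3.11 CPM in MSI tumours, against 12.9, 22.4, 15.5 and 27.0 CPM in CIN tumours. Pld5 and Lhfpl4 had log2 fold changes of -3.06 and -3.45.

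Some lower genes are known from skin and other surface epithelia, a grouping made after the values were seen. Krt16, a keratin of stressed epidermis, had 0.44, 0.20, 0.94 and 0.73 CPM in MSI tumours, against 10.1, 8.22, 10.7 and 9.42 CPM in CIN tumours. Its log2 fold change was -4.13 ± 0.38 (edgeR adjusted p = 0.0114). Hr, a corepressor needed for the hair cycle, had 30.0, 31.5, 45.7 and 37.0 CPM in MSI tumours, against 145, 172, 163 and 174 CPM in CIN tumours. Klk6, a secreted serine protease, had 1 count over the MSI and 99 counts over the CIN libraries. The S100 gene S100a7a fell by 2.32 and Plet1 by 2.29 on the log2 scale. Lcn2, which encodes the iron-binding protein lipocalin 2 made by neutrophils and inflamed epithelia, had 1.63, 1.06, 0.56 and 0.99 CPM in MSI tumours, against 21.7, 11.02, 4.27 and 11.2 CPM in CIN tumours. The CIN libraries varied in Lcn2, with replicate 1 with MSI DNA highest, yet all lay above every MSI library (log2 fold change -3.46 ± 0.44). The keratin list, which does not hold Krt16, had 0 calls (edgeR). Keratins as a list were positive in 9 of 11 tested members with a median log2 fold change of 0.96, and in 1 of them without the colon-rich MSI libraries, where the median was -1.03.

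Of 19 tested collagen genes 4 fell in MSI tumours and 0 rose (edgeR), against 0.402% and 0.117% of all genes. Of the 19, 12 were negative and 7 positive, against 53.8% of all genes positive, with a median log2 fold change of -0.60. Col1a1, the main chain of the fibrils of connective tissue, had 298.2, 356.5, 346.9 and 385.3 CPM in MSI tumours, against 967.9, 1044, 859.2 and 856.3 CPM in CIN tumours. It thus differed 2.68-fold with narrow ranges in both tumour types (log2 fold change -1.42 ± 0.13, edgeR adjusted p = 0.0114). Col6a3, a chain of the beaded filaments around cells, had 291, 179, 482 and 204 CPM in MSI tumours, against 1085, 1943, 1405 and 1945 CPM in CIN tumours. Col18a1, the source of endostatin, and Col5a2, which sets fibril width, fell by 1.48 and 0.82 on the log2 scale. Col27a1, not on the list, fell by 0.99. Of other matrix genes the small proteoglycan gene Prelp fell by 1.15, Olfml3 by 0.78, the plasminogen activator gene Plat by 1.67 and the metalloprotease gene Adam19 by 1.04. The list of matrix genes and their enzymes had 0 calls (edgeR, 2 higher and 4 lower with an unadjusted p under 0.05, against 6.24% and 8.71% of all genes, and 2 and 3 called by DESeq2), and 16 of 22 members were negative. Its member Omd, which encodes osteomodulin, missed the threshold at 7.77, 4.97, 8.59 and 2.05 CPM in MSI tumours, against 0.60, 1.01, 0.38 and 0.31 CPM in CIN tumours (edgeR adjusted p = 0.0501). Aspn, a related leucine-rich proteoglycan that binds TGF-beta, rose by 1.24. Spp1, or osteopontin, a glycoprotein secreted by macrophages and tumour cells, had 182, 93.4, 251 and 157.5 CPM in MSI tumours, against 673, 778, 780 and 862 CPM in CIN tumours (log2 fold change -2.20 ± 0.25, edgeR adjusted p = 0.0200).

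The TGF-beta list was negative in 14 of 16 tested members, where 53.8% of all genes were positive, with a median log2 fold change of -0.37. By edgeR it had 0 calls, and 7 members were lower with an unadjusted p under 0.05, against 8.71% of all genes. DESeq2 called 4 lower, against 3.55% of all genes. Ltbp2, a matrix gene named for the family of latent TGF-beta binding proteins, had 116, 35.6, 124 and 37.0 CPM in MSI tumours, against 413, 581, 501 and 577 CPM in CIN tumours. It missed the threshold (edgeR adjusted p = 0.0627). The ranges of both tumour types did not overlap. The antisense gene D030025P21Rik, which overlaps Ltbp2 on the opposite strand, fell by 3.17. Whether reads were counted by strand is not known, so reads of overlapping genes cannot be told apart. Of the 93 called genes 31 overlapped a gene on the opposite strand, 10 of them a protein-coding one, among them Masp1 with Rtp4, Nrn1 with Fars2 and Amigo2 with Pced1b.

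Lipid synthesis genes were among the called lower genes, in a group put together after the values were seen. Scd1, which introduces double bonds into fatty acids, had 122, 116, 153 and 110.5 CPM in MSI tumours, against 214, 244, 253 and 243 CPM in CIN tumours. Elovl6, which lengthens fatty acids, fell by 0.62, Acsbg1, which activates them, by 1.70, the carrier gene Fabp5 by 0.91 and the sterol synthesis gene Hsd17b7 by 0.78.

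**Figure D3:**
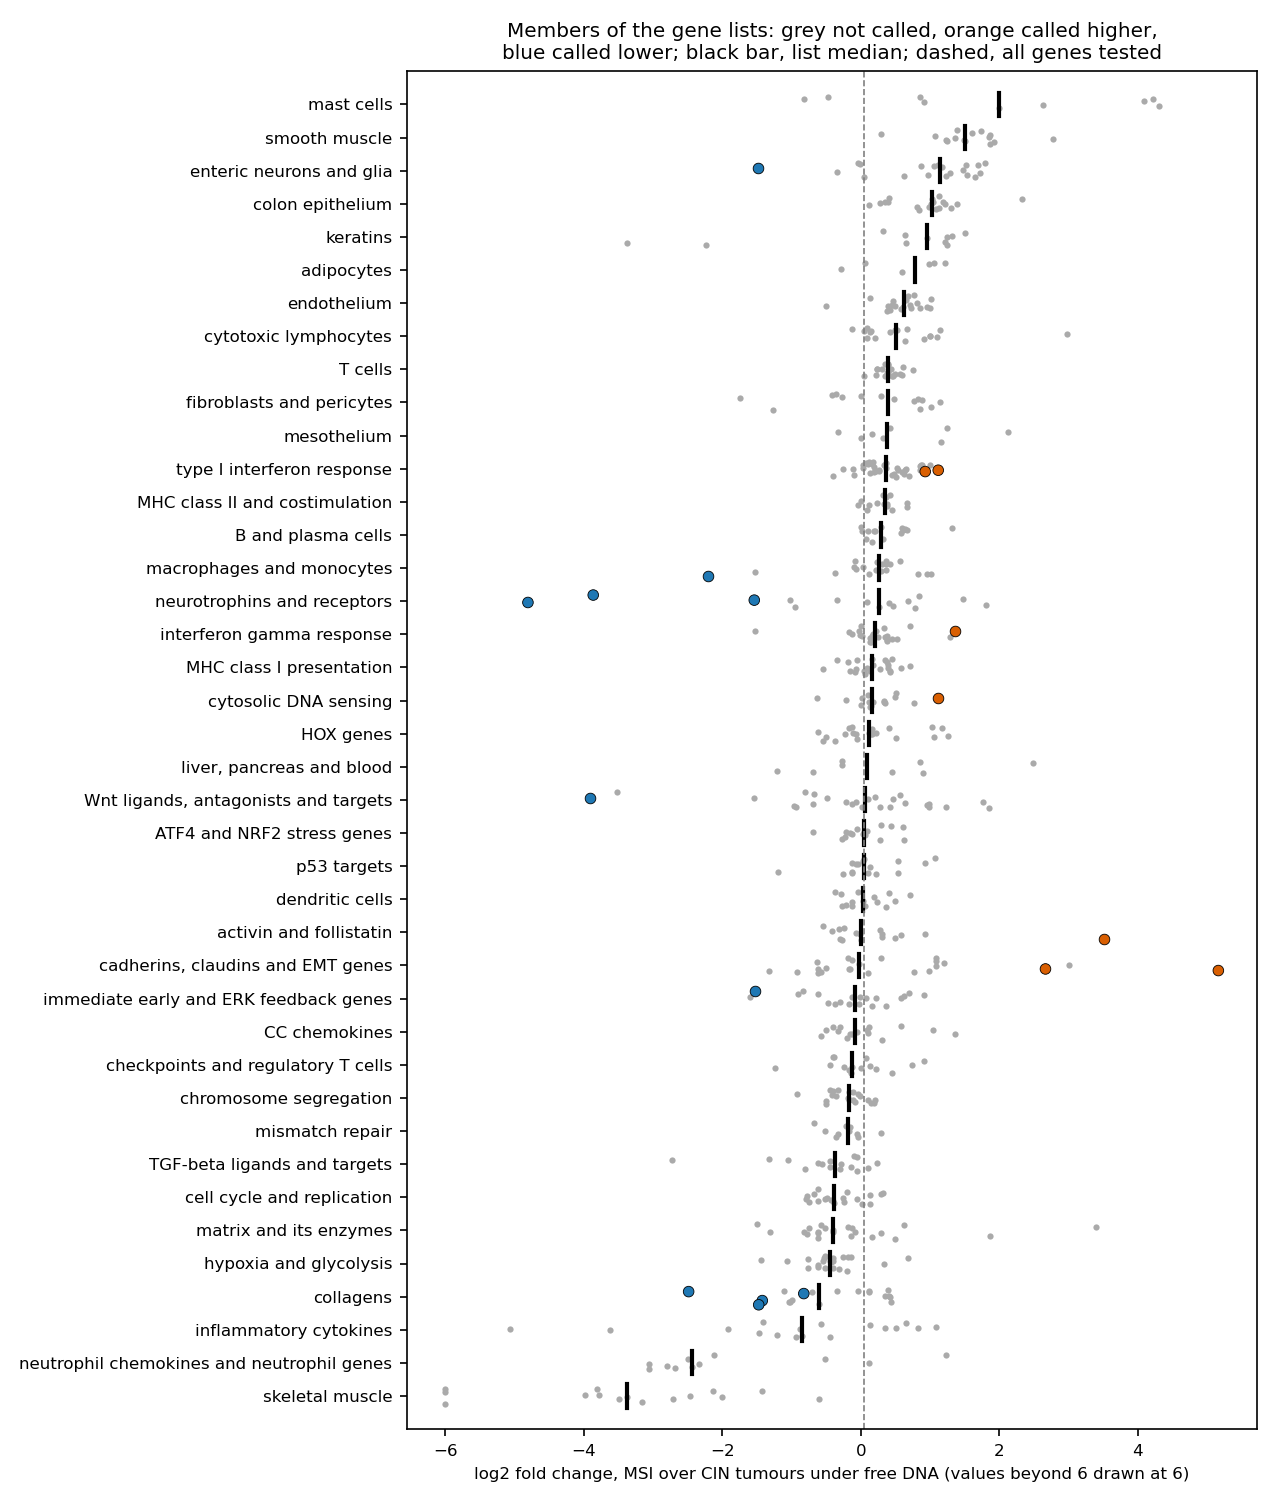
Log2 fold change (horizontal axis, MSI over CIN tumours) of each tested member of 40 gene lists (rows, ordered by their median). Large points were called higher (orange) or lower (blue), black bars are list medians, and the dashed line is the median of all genes tested at 0.04. Mast cell genes lie at the top with a median of 2.00, and neutrophil and skeletal muscle genes at the bottom with medians of -2.44 and -3.37.

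In the type I interferon list, 33 of 37 tested members were positive, against 53.8% of all genes tested, and their median was 0.36. Of these, 2 passed the test. Zbp1, which senses Z-form nucleic acids and can start cell death, had 119, 100.7, 132 and 136.5 CPM in MSI tumours, against 54.2, 55.02, 54.5 and 60.2 CPM in CIN tumours. It was 2.17-fold higher (log2 fold change 1.12 ± 0.11, edgeR adjusted p = 0.0139). Dhx58, which encodes the RNA sensor LGP2, had 23.6, 29.1, 27.6 and 31.1 CPM in MSI tumours, against 13.5, 16.02, 14.1 and 14.9 CPM in CIN tumours (log2 fold change 0.93 ± 0.14, edgeR adjusted p = 0.0414). Rtp4, a chaperone of receptors induced by interferon, lay at 50.4 to 77.2 CPM in MSI and 29.7 to 37.3 CPM in CIN tumours and missed the threshold (edgeR adjusted p = 0.0720). Isg15, an ubiquitin-like modifier, had 29.8, 29.1, 43.9 and 44.4 CPM in MSI tumours, against 26.7, 23.8, 25.9 and 27.8 CPM in CIN tumours. Ifit1, which binds foreign capped RNA, had 41.1, 49.5, 48.7 and 75.5 CPM in MSI tumours, against 32.6, 39.5, 37.9 and 37.2 CPM in CIN tumours. Neither overlapped and neither passed (log2 fold changes 0.47 and 0.53, edgeR adjusted p = 0.195 and 0.246). In all, 12 members had an unadjusted p under 0.05, all of them higher, against 6.24% of all genes, and DESeq2 called 8 higher, against 1.73% of all genes. The list's mean log2 CPM was 5.36 to 5.70 in MSI and 4.97 to 5.26 in CIN tumours. Its median stayed at 0.50 without the muscle-rich CIN libraries and 0.30 without the colon-rich MSI libraries, with 34 and 32 members positive.

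Cxcl9, the chemokine that draws activated T cells, was the 1 called member of the 24 interferon gamma response genes. Its level was 509.6, 341, 525.6 and 299.5 CPM in MSI tumours, against 150.4, 153, 166 and 184 CPM in CIN tumours (2.57-fold, log2 fold change 1.36 ± 0.21, edgeR adjusted p = 0.0419). The CIN libraries lay close together, and within MSI tumours both replicate 1 libraries were the higher ones. Gbp4, a guanylate-binding protein gene, had the same shape, with 423, 192, 457 and 172 CPM in MSI tumours, against 101, 143, 112 and 154 CPM in CIN tumours, and did not pass (edgeR adjusted p = 0.176). Cxcl10, a chemokine for the same receptor, had 192 to 385 CPM in MSI and 168 to 199.6 CPM in CIN tumours and overlapped between tumour types. Nos2, which makes nitric oxide in activated macrophages, went the other way with a log2 fold change of -1.53, at 26.1 to 56.4 CPM in MSI and 82.2 to 149.5 CPM in CIN tumours (edgeR adjusted p = 0.0833). Of the whole list 19 members were positive and 5 negative, where 53.8% of all genes were positive, with a median log2 fold change of 0.20. Without the colon-rich MSI libraries 23 were positive and the median was 0.46.

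The promoters of the interferon genes are shown because the response is read through a short element, the interferon-stimulated response element, searched here as GAAA, any 2 bases and GAAA again, on both strands in the 250 bases before the start of each gene. Sequences are from RefSeq on GRCm38.p6, in the direction of transcription. Capitals mark the element, and adjoining matches run together. The Isg15 window is chr4:156200819-156201068 on the minus strand, and the Ifit1 window is chr19:34640639-34640888 on the plus strand.
Isg15: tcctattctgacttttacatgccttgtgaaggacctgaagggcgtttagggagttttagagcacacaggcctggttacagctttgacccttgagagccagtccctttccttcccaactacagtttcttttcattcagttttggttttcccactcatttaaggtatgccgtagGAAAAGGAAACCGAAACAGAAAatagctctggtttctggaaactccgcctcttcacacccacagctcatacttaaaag
Ifit1: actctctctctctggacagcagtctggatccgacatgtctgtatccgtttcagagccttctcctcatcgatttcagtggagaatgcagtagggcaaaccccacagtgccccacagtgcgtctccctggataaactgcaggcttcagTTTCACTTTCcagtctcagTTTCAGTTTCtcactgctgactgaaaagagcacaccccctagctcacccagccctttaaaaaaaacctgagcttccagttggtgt
The element was present in 13 of 26 type I interferon genes with a window and in 3.46% of 27025 genes. Members with the element had a median log2 fold change of 0.36 and those without it 0.34. Among the called genes with a window it was present in 1 of 17 higher and 1 of 46 lower ones. Zbp1 and Dhx58, the called members of the type I interferon list, had no window and were not searched. A match is a description of the letters and not a site of binding.

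Of 16 tested genes of cytosolic DNA sensing Zbp1, also on the type I interferon list, was the 1 call, against 0.117% of all genes called higher. Of the 16, 13 were positive, against 53.8% of all genes, and the median log2 fold change was 0.16. Mb21d1, which encodes cGAS, had 9.85, 7.09, 8.46 and 6.55 CPM in MSI tumours, against 5.71, 10.4, 7.47 and 7.85 CPM in CIN tumours. Tmem173, which encodes STING, had 47.8 to 73.6 CPM in MSI and 52.3 to 60.8 CPM in CIN tumours. Both overlapped between tumour types (edgeR adjusted p = 0.971 and 0.660). Mismatch repair genes had 0 calls of 10 by edgeR and 0 by DESeq2. With an unadjusted p under 0.05 (edgeR) 1 was lower, against 8.71% of all genes. Of the 10, 9 were negative with a median log2 fold change of -0.19, where 53.8% of all genes were positive. Without the muscle-rich CIN libraries 7 were negative, and likewise without the colon-rich MSI libraries.

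**Figure D4:**
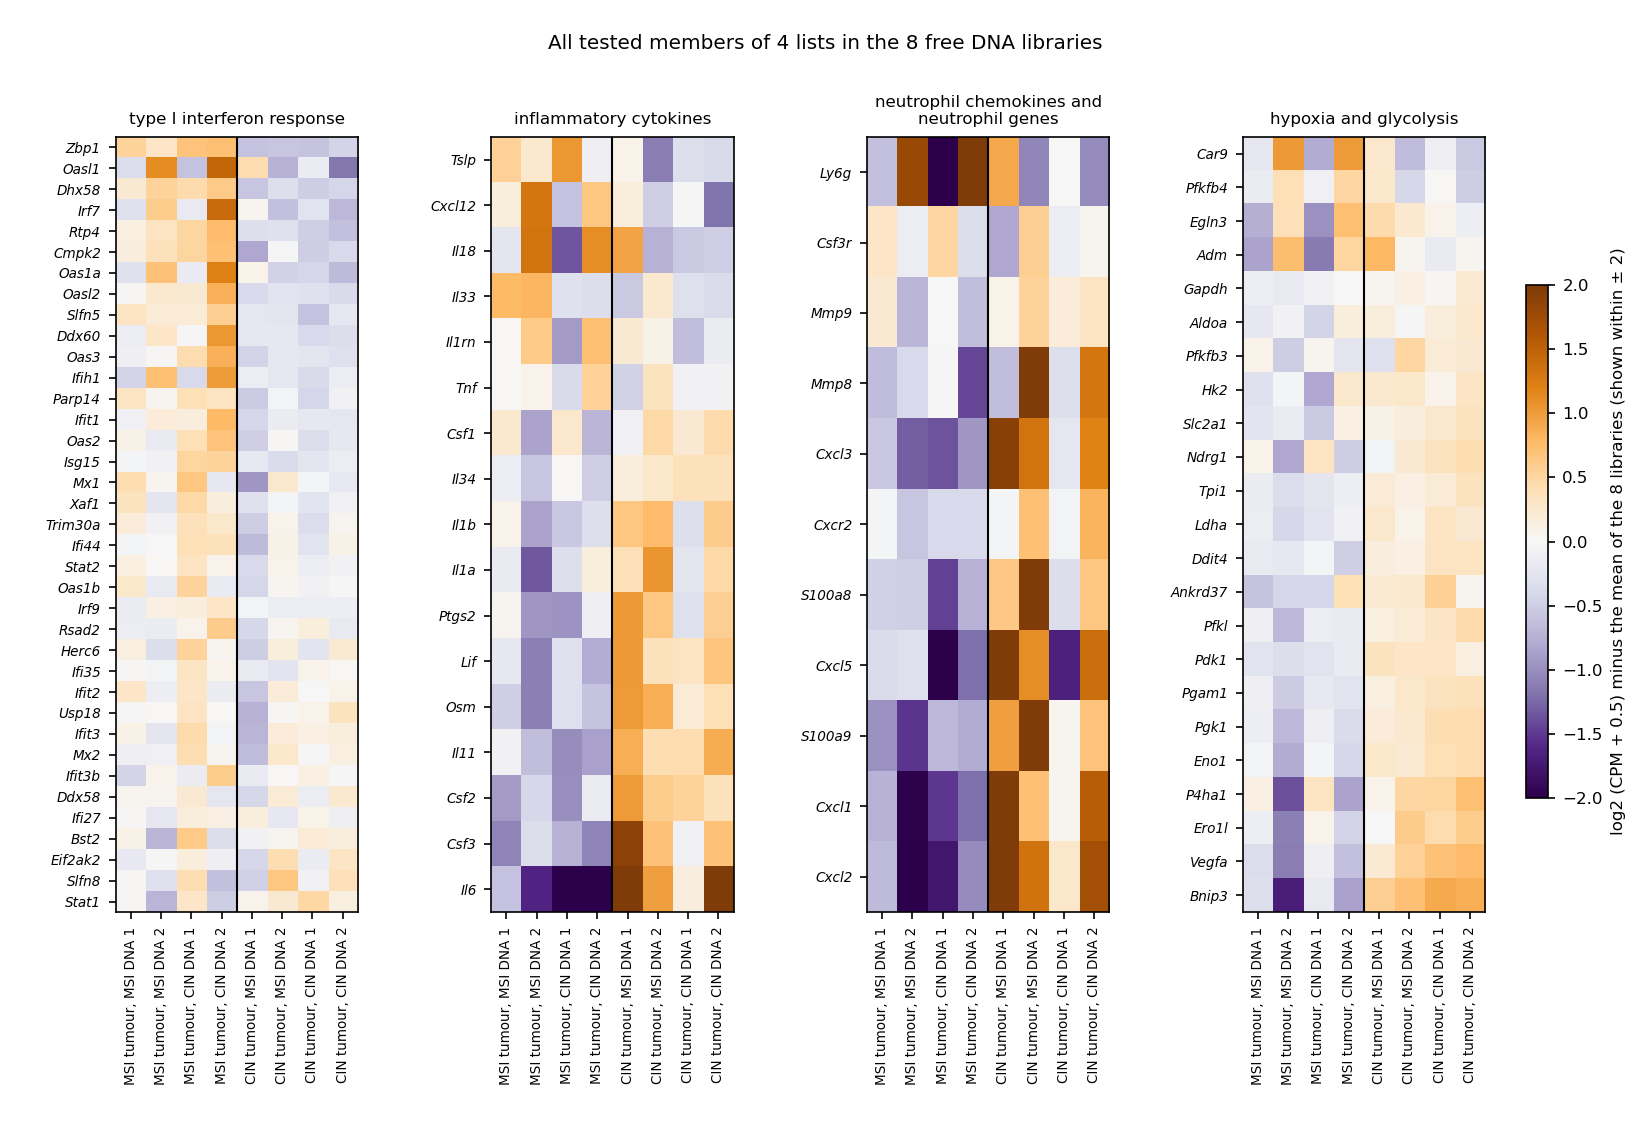
Log2 (CPM + 0.5) of every tested member of 4 lists, each row centred on the mean of the 8 free DNA libraries and shown within ± 2 (orange above, purple below), with the 4 MSI tumour libraries left and the 4 CIN tumour libraries right of the line. Interferon genes are mostly above the mean in MSI tumours, while cytokine, neutrophil and hypoxia genes are mostly above it in CIN tumours.

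Of 17 tested genes of inflammatory cytokines 11 were negative, and of 11 neutrophil genes 9. Il6, a pyrogenic cytokine, had 1.48, 0.46, 0.13 and 0.07 CPM in MSI tumours, against 40.1, 5.42, 2.81 and 11.7 CPM in CIN tumours. The tumour types did not overlap, but the CIN libraries differed widely among themselves, and Il6 missed the threshold (log2 fold change -5.07 ± 0.91, edgeR adjusted p = 0.0640). The cytokine genes Il11, Lif and Osm, whose products signal through the gp130 receptor as that of Il6 does, had log2 fold changes of -1.48, -1.21 and -1.41. Il11 lay at 1.57 to 3.48 CPM in MSI and 5.06 to 7.16 CPM in CIN tumours, Lif at 7.95 to 15.2 CPM and 22.2 to 36.5 CPM. Both were apart between tumour types and did not pass (edgeR adjusted p = 0.0960 and 0.108). The neutrophil attractant Cxcl2 had 3.63, 0.99, 1.44 and 2.71 CPM in MSI tumours, against 31.0, 16.1, 7.47 and 20.9 CPM in CIN tumours (log2 fold change -3.06 ± 0.54, edgeR adjusted p = 0.0621). Cxcl1 had 10.4, 4.04, 5.77 and 7.21 CPM in MSI tumours, against 154.7, 28.8, 18.1 and 52.3 CPM in CIN tumours. The alarmin genes S100a8 and S100a9, which mark neutrophils, had log2 fold changes of -2.49 and -2.80 from at most 9.23 CPM in any library. By edgeR 0 of 17 cytokine and 0 of 11 neutrophil genes were called. An unadjusted p under 0.05 was found in 9 cytokine genes that were lower and 1 that was higher, and in 8 neutrophil genes that were lower, against 8.71% of all genes lower at that level. DESeq2 called 7 and 6, all lower, against 3.55% of all genes. The medians were -0.85 and -2.44, and -0.56 and -1.81 without the muscle-rich CIN libraries.

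Of 23 genes of hypoxia and glycolysis 21 were negative with a median log2 fold change of -0.44, where 53.8% of all genes were positive. By edgeR 0 of the list was called, and 12 were lower with an unadjusted p under 0.05, against 8.71% of all genes. DESeq2 called 10, all lower, against 3.55% of all genes. Vegfa, the main growth factor of vessels, had 198, 117, 237 and 165 CPM in MSI tumours, against 293, 371.5, 411 and 431 CPM in CIN tumours (log2 fold change -1.07 ± 0.20, edgeR adjusted p = 0.0697). Bnip3, which targets mitochondria for removal in low oxygen, had 61.5, 23.5, 67.8 and 41.9 CPM in MSI tumours, against 114, 126, 144 and 141 CPM in CIN tumours (edgeR adjusted p = 0.0843). Of glycolysis genes Pgk1 and Pdk1, the brake on pyruvate entry into mitochondria, had log2 fold changes of -0.61 and -0.53, and neither overlapped between tumour types. Egln1, which encodes the oxygen sensor PHD2 that marks HIF for destruction and is itself a HIF target, was called lower. It had 75.5, 79.7, 90.5 and 90.1 CPM in MSI tumours, against 135, 151, 149 and 146 CPM in CIN tumours (log2 fold change -0.80 ± 0.10, edgeR adjusted p = 0.0274). Egln1 is not on the list and was named after its values were seen. The list's median was -0.47 without the muscle-rich CIN libraries and -0.43 without the colon-rich MSI libraries.

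Promoters of Bnip3 and Egln1 are shown for the core of the hypoxia response element, ACGTG on either strand, in capitals where it occurs. The windows are chr7:138909507-138909756 for Bnip3 and chr8:124949255-124949504 for Egln1, both on the minus strand (RefSeq, GRCm38.p6).
Bnip3: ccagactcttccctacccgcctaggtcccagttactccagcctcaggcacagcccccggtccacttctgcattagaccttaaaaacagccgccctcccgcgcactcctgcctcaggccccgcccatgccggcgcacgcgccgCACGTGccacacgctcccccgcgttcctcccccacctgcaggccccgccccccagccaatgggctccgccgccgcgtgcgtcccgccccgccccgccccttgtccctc
Egln1: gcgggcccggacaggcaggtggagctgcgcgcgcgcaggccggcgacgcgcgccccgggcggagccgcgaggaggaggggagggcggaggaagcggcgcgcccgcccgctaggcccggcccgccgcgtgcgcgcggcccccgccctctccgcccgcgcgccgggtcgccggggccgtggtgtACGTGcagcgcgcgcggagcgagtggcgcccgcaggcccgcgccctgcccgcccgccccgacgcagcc
In Bnip3 the match reads CACGTG and holds the core on both strands. Vegfa, not shown, had 0 matches in the window chr17:46032378-46032627 and 1 in the window chr17:46025164-46025413. The core was present in 14 of 21 hypoxia and glycolysis genes with a window and in 18.5% of all genes with one. Median log2 fold changes were -0.45 with the core and -0.43 without it. It was found in 3 of 17 higher and 9 of 46 lower called genes with a window, shares near that of all genes.

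The mast cell and endothelial lists had 0 calls each by edgeR. With an unadjusted p under 0.05, 5 of 9 mast cell genes were higher and 1 lower and 12 of 20 endothelial genes higher, against 6.24% of all genes higher and 8.71% lower. Of 9 tested mast cell genes 7 were positive with a median log2 fold change of 2.00, and DESeq2 called 5 higher and 1 lower, against 1.73% and 3.55% of all genes. The tryptase gene Tpsb2 had 4.29, 7.42, 3.32 and 8.93 CPM in MSI tumours, against 0, 0.48, 0.59 and 0.06 CPM in CIN tumours (edgeR adjusted p = 0.0773). Reads of its near copy Tpsab1 could be counted in either gene. Cma1, the chymase gene, lay at 2.44 to 10.2 CPM in MSI and 1.00 to 2.40 CPM in CIN tumours. Within MSI tumours both replicate 2 libraries, rich in colon and smooth muscle transcripts, were the higher ones for Tpsb2 and Cma1. The part of that tissue content in the mast cell values was not tested, but the list's median was 1.13 without those libraries. Of 20 endothelial genes 19 were positive with a median log2 fold change of 0.63, and DESeq2 called 6, all higher. Sox18, a transcription factor of vessel development, had 10.2, 10.53, 7.46 and 8.20 CPM in MSI tumours, against 5.64, 5.18, 3.19 and 4.27 CPM in CIN tumours (edgeR adjusted p = 0.0773). Pecam1, an adhesion protein between endothelial cells, lay at 27.8 to 49.97 CPM in MSI and 21.5 to 31.9 CPM in CIN tumours and overlapped. The endothelial median was 0.60 without the muscle-rich CIN libraries and 0.69 without the colon-rich MSI libraries.

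T cell genes were positive in all 20 tested members, against 53.8% of all genes, with a median log2 fold change of 0.39. By edgeR 0 were called, and 3 were higher with an unadjusted p under 0.05, against 6.24% of all genes. DESeq2 called 0. Cd8a, the co-receptor of cytotoxic T cells, had 27.2, 23.6, 25.7 and 27.8 CPM in MSI tumours, against 22.6, 19.1, 21.2 and 16.5 CPM in CIN tumours, so that the tumour types were narrowly apart (log2 fold change 0.39 ± 0.15, edgeR adjusted p = 0.281). Without the muscle-rich CIN libraries the T cell median was 0.23 with 17 positive. Cytotoxic lymphocyte genes were positive in 17 of 18 with a median of 0.51 and 0 calls by edgeR. With an unadjusted p under 0.05 (edgeR) 4 were higher, and DESeq2 called 2 higher, against 6.24% and 1.73% of all genes. Klrk1, the activating receptor NKG2D, had 7.54 to 10.7 CPM in MSI and 3.33 to 5.19 CPM in CIN tumours (edgeR adjusted p = 0.110). The effector genes Gzmb and Prf1 overlapped widely, at 16.03 to 37.7 CPM and 7.42 to 23.9 CPM in MSI tumours, against 16.7 to 33.6 CPM and 10.6 to 23.9 CPM in CIN tumours. Ifng had 2.32 to 4.74 CPM in MSI and 2.07 to 3.31 CPM in CIN tumours, Ccl5 17.8 to 28.4 CPM and 12.4 to 28.0 CPM, Cd274, the ligand of PD-1, 43.2 to 81.3 CPM and 54.1 to 89.1 CPM, and Foxp3 0.60 to 0.94 CPM and 0.68 to 1.25 CPM. None of these 4 passed (edgeR adjusted p from 0.389 to 0.879).

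Other cell type and pathway lists had 0 calls by edgeR with the exceptions named above and that of the macrophage and monocyte list. Of its 20 tested members 1, Spp1, was called lower, against 0.402% of all genes, and 14 were positive, against 53.8% of all genes. Colon epithelium genes were positive in 19 of 19 and smooth muscle genes in 15 of 15, with medians of 1.02 and 1.499. Without the colon-rich MSI libraries 1 colon epithelium gene was positive and 18 were negative, and the medians were -0.83 and -0.88. Skeletal muscle genes were negative in 15 of 15 with a median of -3.37, or -0.35 without the muscle-rich CIN libraries. Cell cycle genes were negative in 15 of 20 (median -0.39). Of them 5 were lower with an unadjusted p under 0.05 (edgeR), and DESeq2 called 3 lower, against 8.71% and 3.55% of all genes. Chromosome segregation genes were negative in 16 of 20 (median -0.17). Without the colon-rich MSI libraries 12 of the 20 chromosome segregation genes were positive with a median of 0.12, and the cell cycle median was -0.12. MHC class I genes had a median of 0.16 and MHC class II genes one of 0.35, with 16 of 23 and 13 of 14 positive. Macrophage genes had a median of 0.26, B and plasma cell genes 0.29, dendritic cell genes 0.02, p53 targets 0.04, stress genes of ATF4 and NRF2 0.04, CC chemokines -0.09, checkpoint genes -0.13, HOX genes 0.12 and fibroblast and pericyte genes 0.39. Without the muscle-rich CIN libraries the medians of 4 of these lists changed sign, to -0.08 for B and plasma cell genes, -0.25 for dendritic cell genes, 0.03 for CC chemokines and -0.08 for HOX genes, and that of MHC class II genes was 0.15. Without the colon-rich MSI libraries they were -0.03 for B and plasma cell genes, -0.06 for HOX genes, 0.25 for MHC class I genes, 0.46 for macrophage genes, 0.22 for fibroblast and pericyte genes and 0.21 for stress genes.

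The tumour difference was then looked at within each source of DNA, 2 libraries against 2 with a shared estimate of spread. With either source alone edgeR called 0 genes (895 or 5% with an unadjusted p under 0.05 for MSI DNA and 893 or 4.99% for CIN DNA, and DESeq2 called 147 and 120). The 93 genes were called on these same libraries, so their direction within each source is not independent of the call. In both sources all 93 kept their direction. Fst had a log2 fold change of 3.65 with MSI DNA and 3.38 with CIN DNA, Ngfr -4.55 and -5.07, Cxcl9 1.49 and 1.24, and Zbp1 1.01 and 1.23. The difference between the sources itself was called in 0 genes (edgeR, 49 or 0.274% with an unadjusted p under 0.05, DESeq2 0 with 64 unadjusted).

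The 8 libraries of mice given micronuclei, small bodies that hold chromosome fragments outside the nucleus, shared no library with the free DNA fit and gave a separate measurement of the same tumour difference. There edgeR called 5 genes higher and 34 lower of 17591 tested, or 0.0284% and 0.193%. All 21 genes higher under free DNA were also positive with micronuclei, and all 71 tested of the lower ones were negative. An unadjusted p under 0.05 in that direction was found for 20 and 67 of them, against 4.55% and 5.09% of all genes tested with micronuclei. Of these, 2 and 19 were called with micronuclei. The median log2 fold changes were 1.74 under free DNA and 1.86 with micronuclei for the higher genes, and -1.70 under free DNA and -1.25 with micronuclei for the lower genes. Fst had a log2 fold change of 3.64 with micronuclei, Ngfr -4.84, Nrn1 -3.74, Sh3tc2 -3.62 and Col1a1 -1.36. For the difference between free DNA and micronuclei, over all 16 libraries, edgeR called 0 of 18777 genes (159 or 0.847% with an unadjusted p under 0.05, DESeq2 0 with 204 unadjusted). No gene of the tumour difference was thus shown to be particular to free DNA. The lowest p among the 93 was that of Krt16, whose log2 fold change was -4.13 under free DNA and -2.80 with micronuclei (difference -1.34 ± 0.45 SE, edgeR unadjusted p = 0.0123, adjusted p = 1). S100a7a followed at -2.32 and -0.56 (edgeR unadjusted p = 0.0235, adjusted p = 1). Zbp1 had 1.12 under free DNA and 0.64 with micronuclei (edgeR unadjusted p = 0.0618, adjusted p = 1).

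**Figure D5:**
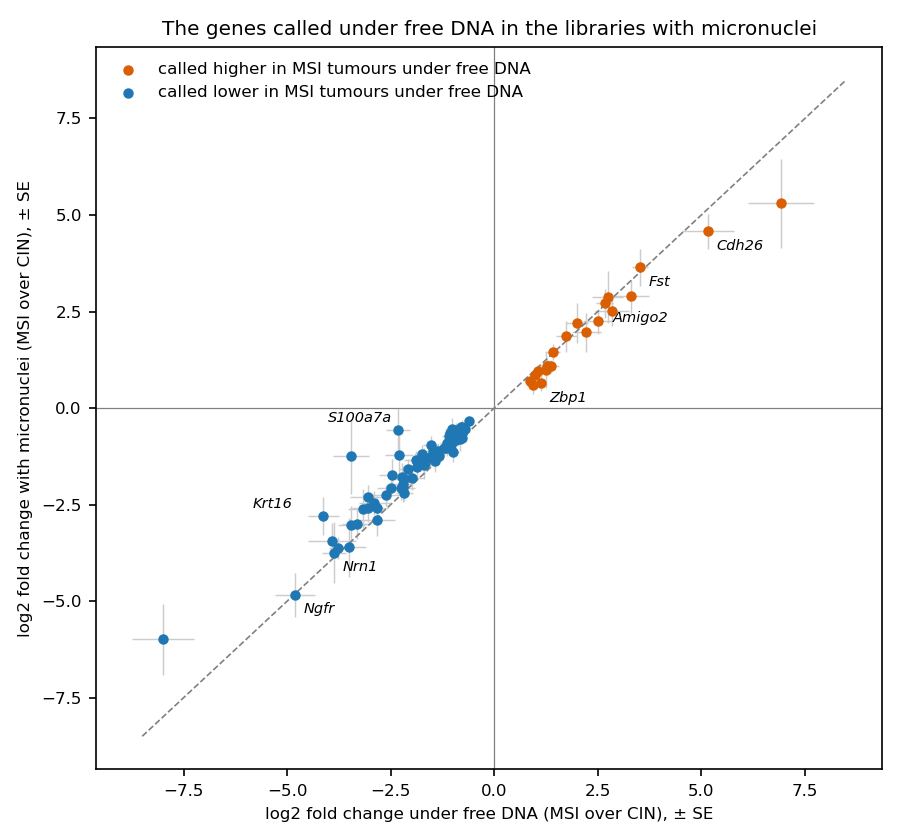
Log2 fold change of MSI over CIN tumours under free DNA (horizontal axis) and with micronuclei (vertical axis), each with its SE, for the called genes tested in both, orange where called higher and blue where called lower under free DNA. Every point lies in a quadrant of equal sign, the dashed line marks equality, and the median of the lower genes was -1.70 under free DNA and -1.25 with micronuclei.

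Lists that had few calls can be set side by side in the same way. The type I interferon list had a median log2 fold change of 0.36 under free DNA and 0.13 with micronuclei, where 27 of 37 members were positive. Hypoxia genes had -0.44 under free DNA and -0.28 with micronuclei, cytokines -0.85 under free DNA and -0.43 with micronuclei, and neutrophil genes -2.44 under free DNA and -0.63 with micronuclei. Mast cell genes had 2.00 under free DNA and 2.24 with micronuclei, endothelial genes 0.63 under free DNA and 0.57 with micronuclei, and collagens -0.60 under free DNA and -0.65 with micronuclei. Skeletal muscle genes had -3.37 under free DNA and 0.34 with micronuclei. The differences between these medians were not tested.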

How the data were processed

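RNA of 16 tumour libraries was measured by poly-A selected sequencing, and 8 of them are compared here. Gene counts and FPKM values were deposited by the authors. The submitters' processing notes name GRCm39 as the build, and list featureCounts 1.5.0-p3, HISAT2 2.0.5 and fastp as tools. The deposited coordinates, however, match GRCm38 (as GENCODE M21 has them for 53499 of 54409 gene identifiers), so GRCm38 is given. The sources used here give no strand setting. The deposited FPKM values were used only for a check: they equalled counts per length and total to a tolerance of 1e-06. Columns that matched no sample, 4 per file, were not used.

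The deposited counts were fitted with edgeR 4.0.16 (R 4.3.3), TMM scaling, filterByExpr by group, an additive model of tumour type and DNA source, and quasi-likelihood tests with robust dispersions (adjusted p under 0.05, Benjamini-Hochberg), tested on simulated data. The table held 54532 genes and all libraries 11561955 to 17937501 counts. The biological coefficient of variation common to all genes was 0.359. DESeq2 1.42.0, other scaling and filters, blocks, tissue covariates and left-out libraries were alternatives. No 2 libraries of a group agreed within counting noise, so none was taken for a duplicate. Scores and plots use log2 (CPM + 0.5). The gene lists (40, with 671 of 715 genes tested), the members and the tests were chosen with earlier results of these data known. Named were, of called protein-coding genes whose mean log2 CPM reached 1 with no overlap between tumour types, the 12 largest rises and 12 largest falls, up to 4 called genes per list and 20 fixed genes; other called genes were named after their values were seen. A few genes are not reported here.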

Additional observations from a re-analysis of the deposited data

Results flagged for a closer look

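Of 98 sets of 4 libraries (49 named genes in 2 tumour types) 8 held 1 library far from the other 3 by Dixon's criterion, where chance gives about 1 in 20. In MSI tumours, Fyb2 was high in replicate 1 with MSI DNA at 12.5 CPM against 6.64 to 7.21 CPM in the others, and the low gene Gm9732 was low in replicate 2 with CIN DNA at 0.33 CPM against 0.75 to 0.81 CPM. In CIN tumours, replicate 1 with CIN DNA had 8.28 CPM of Wnt10a against 12.8 to 14.0 CPM, and 38.8 CPM of Nrn1 against 26.2 to 27.8 CPM. Replicate 2 with CIN DNA, one of the muscle-rich libraries, had 60.2 CPM of Zbp1 against 54.2 to 55.02 CPM and 605.8 CPM of Tubb3 against 551.4 to 553.9 CPM. Replicate 2 of CIN tumours with MSI DNA had 0.48 CPM of Gxylt2 against 1.19 to 1.32 CPM and 1.25 CPM of Foxp3 against 0.68 to 0.76 CPM. All called genes had no overlap between tumour types, so none of these libraries could reach the range of the other tumour type in them.

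Foxp3, the regulatory T cell factor, lay lower in MSI than in CIN tumours in the samples with MSI DNA and higher with CIN DNA. Its tumour effect differed between the DNA sources by a log2 value of -0.87 ± 0.88, and the test of that difference did not pass (edgeR unadjusted p = 0.355, adjusted p = 1.00).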

How the results depend on the processing

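All 93 called genes kept their direction in every alternative run, while the number of calls moved widely. The runs reuse libraries on which the 93 were called, so the kept direction is not independent of the call. Higher and lower genes numbered 310 and 635 with DESeq2, 98 and 415 without the filter on low counts, 69 and 195 without the DNA source term, 61 and 157 over all 16 libraries, and 622 and 1178 with the colon epithelium score as a covariate. They numbered 0 and 0 with the skeletal muscle score as a covariate (1280 with an unadjusted p under 0.05), and likewise without both muscle-rich CIN libraries. Without both colon-rich MSI libraries, a setting chosen after seeing the data, there were 97 and 152. Replicate 1 libraries alone gave 1294 and 1735, and replicate 2 libraries alone 5065 and 5191; the cause was not tested. Leaving out 1 library gave 1 to 34 higher and 3 to 175 lower genes. Totals for MSI tumours were 8 and 18 without replicate 1 or 2 with MSI DNA and 209 and 47 without replicate 1 or 2 with CIN DNA. For CIN tumours they were 21 and 5 with MSI DNA and 4 and 4 with CIN DNA. DESeq2 size factors in edgeR gave 27 and 94.

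Libraries of the same replicate number deviated together within a tumour type, with correlations of their deviations from group means of 0.765 for MSI and 0.406 for CIN tumours. The test treats the libraries of a tumour type as independent, which may therefore not hold. Across tumour types the correlations were -0.508 to -0.256, so MSI and CIN libraries of the same number did not deviate together. Whether the numbers mark a shared batch was not tested. With the replicate block 5 genes were higher and 20 lower, 23 of them among the 93, and with a replicate block nested in tumour type 1910 and 2848, all 93 among them.

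Within MSI DNA the 0 calls became 147 with DESeq2, 130 without the filter and 0 to 4 without 1 library. Within CIN DNA they became 120 and 91.

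Of the fixed genes that did not pass, 7 changed sign in some setting. With replicate 2 libraries alone the log2 fold change was -0.24 for Gzmb, -0.0809 for Tmem173 and -0.39 for Mb21d1. With replicate 1 libraries alone it was -0.0329 for Ccl5, 0.29 for Cd274 and 0.15 for Foxp3. With the skeletal muscle covariate it was -0.10 for Gzmb, -0.0469 for Ccl5 and -2.4e-04 for Tmem173. Without the filter Mb21d1 had -0.0014. Without the muscle-rich CIN libraries Cd274 had 0.0382 and Foxp3 0.0440, and without the colon-rich MSI libraries Cd274 had 0.13. Leaving out 1 library gave -0.0405 to 0.46 for Gzmb, -0.32 to 0.10 for Prf1, -0.12 to 0.29 for Ccl5, -0.12 to 0.21 for Mb21d1, -0.28 to 0.0528 for Cd274 and -0.31 to 0.12 for Foxp3. Over all named genes and settings, 271 values fell short of the threshold their gene had passed and 33 passed it newly.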
